A study of Homo sapiens with 16 samples.

Results

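The ATF4-CHOP stress response core comprised 10 genes, chosen by symbol: ATF4, ATF5, DDIT3, NUPR1, TRIB3, CHAC1, SESN2, ASNS, DDIT4 and PPP1R15A. All 10 were found among the 56969 Ensembl genes of the deposited table, and 9 of them reached the mean of 10 normalized counts set for testing. The cells were HepG2, an established line from a human liver tumour, and had been reverse transfected with HCF-1 siRNA (8 libraries) or with control siRNA (8 libraries). Transfection was repeated after 2 days, and RNA was taken 2 days after the second round. Cells of both groups therefore went through the same transfections and differed in the siRNA. How many siRNAs made up each treatment was not stated in the labels, and all libraries come from 1 cell line. HCF-1, the product of HCFC1, is a chromatin-bound transcriptional cofactor.

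ATF4 is a bZIP transcription factor at the centre of the integrated stress response. In that response, kinases sensing endoplasmic reticulum stress, amino acid shortage, haem shortage or viral RNA phosphorylate eIF2. General translation then falls, while the ATF4 transcript, which carries upstream open reading frames, is translated more. ATF4 protein switches on genes of amino acid supply and, with continued stress, CHOP (the product of DDIT3), which is linked to cell death. Much of the control of ATF4 lies in translation and protein stability, which RNA counts do not measure.

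The promoter windows of these genes show which response elements lie close to their start sites. RefSeq windows (GRCh38.p14, 250 bases before to 50 after a start site) were matched by symbol for 9 of the 10 genes, in 16 windows, with NUPR1 unmatched. Each motif was searched on both strands as exact letters over 35116 windows of the same length. A gene was listed if any of its windows held the motif, whereas the percentages below count single windows. The 2 are therefore not on the same scale, and no excess was tested. The C/EBP-ATF response element core TGATGNAA, the kind of site ATF4 binds with C/EBP partners, was found for ASNS and CHAC1 and in 3.62% of all windows. The cAMP response element TGACGTCA was found for PPP1R15A and in 1.85% of windows. The letters ACTACA followed after 2 free bases by TCCCA, part of the element bound by the HCF-1 partners THAP11 and ZNF143, was found for SESN2 and in 1.36% of windows. The CCAAT box, CCAAT, was found for DDIT3, SESN2, DDIT4 and CHAC1 and in 34.6% of windows. The ER stress response element, a CCAAT box followed after 9 free bases by CCACG, was found for 0 of the 9 genes and in 0.0769% of windows. This search of exact letters misses near matches. In the DDIT3 stretch below, each CCAAT box is followed after 9 free bases by letters that differ from CCACG in a single place. They are CCACT on the gene's strand and GCACG on the other. The 80-base stretches below run 5′ to 3′ on the gene's strand, and each was chosen to show the motif, which stands in capitals.
DDIT3, chr12:57520555-57520634, minus strand, with a CCAAT box on each strand: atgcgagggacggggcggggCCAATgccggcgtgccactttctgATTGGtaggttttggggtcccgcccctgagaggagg
SESN2, chr1:28259298-28259377, plus strand, with the THAP11 and ZNF143 letters: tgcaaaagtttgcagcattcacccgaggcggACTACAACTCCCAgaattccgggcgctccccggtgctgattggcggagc
PPP1R15A, chr19:48872321-48872400, plus strand, with the cAMP response element: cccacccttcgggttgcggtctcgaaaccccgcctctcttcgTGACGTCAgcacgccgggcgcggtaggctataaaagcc
ASNS, chr7:97872439-97872518, minus strand, with the C/EBP-ATF core: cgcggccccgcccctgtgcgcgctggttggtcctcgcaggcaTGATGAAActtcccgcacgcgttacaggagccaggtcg
CHAC1, chr15:40953221-40953300, plus strand, with the C/EBP-ATF core read on the opposite strand: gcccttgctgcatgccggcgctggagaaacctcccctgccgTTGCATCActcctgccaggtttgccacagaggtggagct
The motif began 189 bases before the start site for SESN2, 58 for PPP1R15A, 68 for ASNS and 209 for CHAC1. A match describes the letters and does not show binding.

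The libraries held 25098840 to 43186890 recovered reads after HCF-1 siRNA and 21030830 to 32820459 after control siRNA, so the HCF-1 siRNA libraries were deeper (two-sided exact permutation p = 0.0375). Normalized counts are reads divided by 1 size factor per library. The targeted gene HCFC1 averaged 3682 ± 340.0 normalized counts after HCF-1 siRNA and 5631 ± 671 after control siRNA (SD, n = 8 each), or 65.4% of control. The knockdown was therefore partial at the RNA level. Across 16081 genes tested, 36.6% passed a limma adjusted p of 0.05, with 18.2% higher and 18.3% lower after HCF-1 siRNA. The groups did not overlap for 9.82% of genes tested. The median log2 fold change of all genes was 0.01. Summed counts of 10 hepatocyte markers were 894526 to 1064076 after HCF-1 siRNA and 755882 to 818788 after control siRNA, and 7 of the 10 rose, 1 fell and 2 did not pass. Blood markers (6) summed to 2883 to 3781 after HCF-1 siRNA and 3181 to 4185.5 after control siRNA, with CD3E and HBB at 0. Most of this sum was CD74, which did not pass (limma adjusted p = 0.065), nor did CD14, and LAPTM5 fell (limma adjusted p = 0.00694). Endothelial markers (4 in the table) summed to 265.0 to 420.8 after HCF-1 siRNA and 396.7 to 536.5 after control siRNA, with KDR at 0. ESAM, the largest part, fell to 189.8 normalized counts on average after HCF-1 siRNA, against 347.1 after control siRNA (limma adjusted p = 4.39e-05). CDH5 and VWF did not pass. Mesenchymal markers (6) summed to 866.0 to 1473 after HCF-1 siRNA and 911.1 to 1473.3 after control siRNA, with THY1 at 0. The 2 mesenchymal markers tested went opposite ways. COL1A1 had 341.2 to 576.1 after HCF-1 siRNA and 429.9 to 950.1 after control siRNA and fell, and PDGFRB had 377.0 to 895.8 and 336.9 to 586.6 in these groups and did not pass with limma (adjusted p = 0.0859) but did with DESeq2 (adjusted p = 0.0382). The part of these shifts in the results below was not tested. In bulk RNA, a change in the number of cells expressing a gene and a change in RNA per cell cannot be told apart.

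Of the 9 stress genes tested, 6 were called higher after HCF-1 siRNA, 0 were called lower and 3 did not pass. Over all genes tested, 18.2% were called higher and 18.3% lower. The set was chosen with earlier results of these data known, so its counts are not an independent test against these shares. The median log2 fold change of the 9 genes was 0.19. For 3 of them, DDIT3, NUPR1 and ATF4, every HCF-1 siRNA library lay above every control library, and 4.59% of all genes tested were separated in that direction. None of the 9 was separated downward, as were 5.23% of all genes. On recovered reads, edgeR called 5 of the 9 (36.5% of all genes) and DESeq2 called 6 (38.9% of all genes). Changes of at least 1.5-fold were called for DDIT3 and NUPR1 only, and 5.65% of all genes tested passed that limit upward. The plot of normalized counts by library shows the 3 separated genes beside those that overlap.

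**Figure D1:**
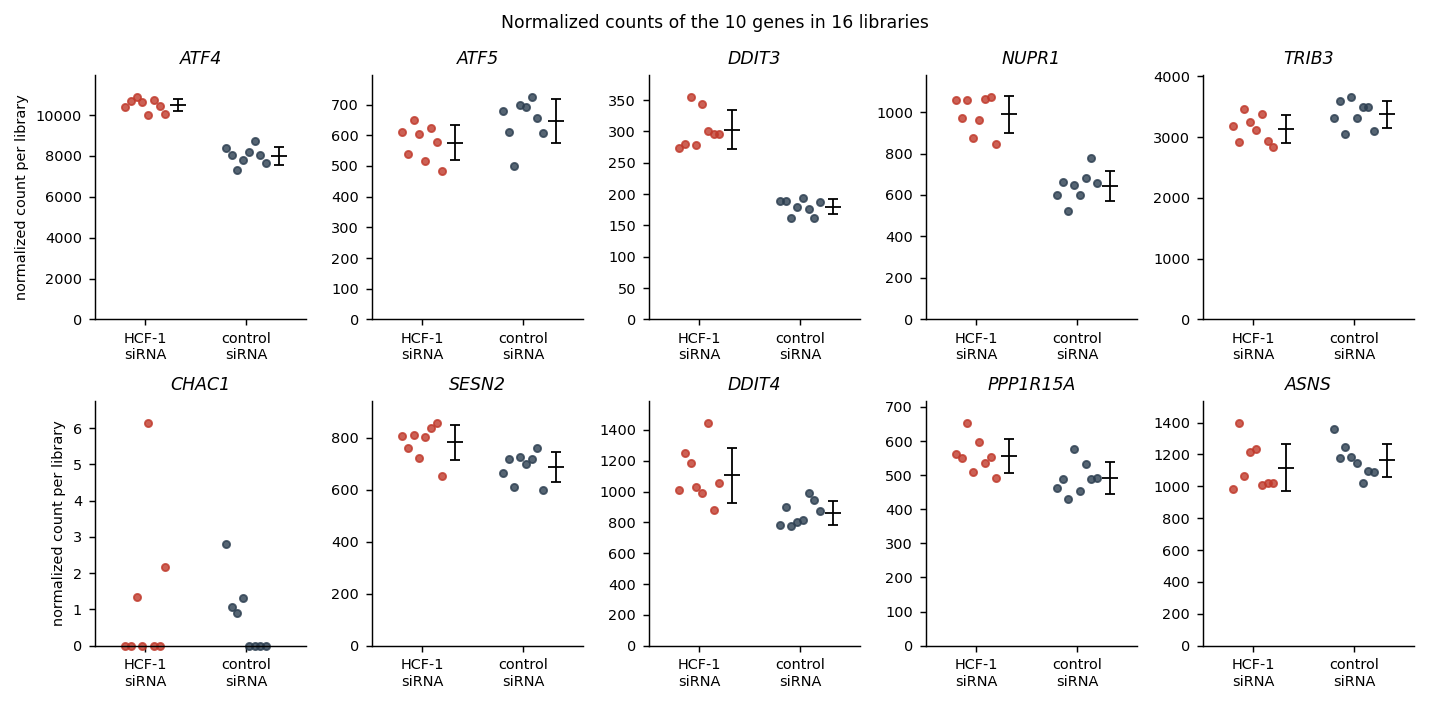
Normalized counts (y axis, from 0) of each of the 10 genes in 8 HCF-1 siRNA libraries (red) and 8 control siRNA libraries (dark blue), with mean and SD in black except for CHAC1. ATF4, DDIT3 and NUPR1 separate the groups, and CHAC1 stays at 6.14 normalized counts or fewer in every library.

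Among the transcription factors, ATF4 (ENSG00000128272, chromosome 22) rose modestly and evenly. It had 10021 normalized counts in the lowest, 10545 in the median and 10896 in the highest HCF-1 siRNA library, against 7302, 8031 and 8715 in the control siRNA libraries. Every HCF-1 siRNA library was above every control library, and the spread within each group was small, with a coefficient of variation of 3.0% after HCF-1 siRNA and 5.5% after control siRNA. ATF4 had a log2 fold change of 0.39 ± 0.03 (SE, limma adjusted p = 2.67e-07), a 1.31-fold increase.

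DDIT3 (ENSG00000175197, chromosome 12) encodes CHOP, a C/EBP-family factor that ATF4 induces. It had 273.3, 296.2 and 355.2 normalized counts in the lowest, median and highest HCF-1 siRNA library, against 161.9, 183.7 and 193.3 in the control siRNA libraries. No library of the 2 groups overlapped. DDIT3 had the largest increase of the 9 genes, with a log2 fold change of 0.75 ± 0.07 (SE, limma adjusted p = 7.92e-07), at percentile 94.7 of all genes tested. In the GENCODE v29 annotation, 355 of the 1307 exonic bases of DDIT3 overlap exons of MARS on the opposite strand (27.2%), and whether the authors' counting used strand is not known here. MARS, methionyl-tRNA synthetase, went the other way, with 3678 ± 197 normalized counts after HCF-1 siRNA and 4581 ± 178 after control siRNA (limma adjusted p = 4.85e-06).

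NUPR1 (ENSG00000176046, chromosome 16) encodes a stress-induced chromatin-associated protein. It had 846.4, 1014 and 1074 normalized counts in the lowest, median and highest HCF-1 siRNA library, against 524.4, 652.2 and 778.8 in the control siRNA libraries. The groups did not overlap, although only a narrow gap separated them. NUPR1 had a log2 fold change of 0.62 ± 0.08 (SE, limma adjusted p = 7.12e-06).

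ATF5 (ENSG00000169136, chromosome 19), a bZIP factor related to ATF4 and itself translated under stress, did not pass. It had 484.6, 590.7 and 651.1 normalized counts in the lowest, median and highest HCF-1 siRNA library, against 501.0, 668.7 and 725.4 in the control siRNA libraries. None of the HCF-1 siRNA libraries was above the control median. ATF5 had a log2 fold change of -0.17 ± 0.08 (SE), which did not pass (limma adjusted p = 0.115). Without control siRNA replicate 3, the lowest control library, the decrease passed (limma adjusted p = 0.0221, against 0.0221 to 0.234 over the 25 alternatives). Exons of NUP62 on the opposite strand cover 21.2% of the ATF5 exonic bases, and NUP62 had 2912 ± 152 normalized counts after HCF-1 siRNA and 2946 ± 106 after control siRNA.

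Among the effectors, DDIT4 (ENSG00000168209, chromosome 10), which encodes the mTORC1 inhibitor REDD1, rose. It had 879.2, 1043 and 1445 normalized counts in the lowest, median and highest HCF-1 siRNA library, against 776.2, 843.7 and 993.4 in the control siRNA libraries. The groups overlapped, with 6 of 8 HCF-1 siRNA libraries above the highest control library. DDIT4 had a log2 fold change of 0.35 ± 0.09 (SE, limma adjusted p = 0.00489). DDIT4-AS1 shares 41.2% of the DDIT4 exonic bases on the opposite strand in GENCODE v29.

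SESN2 (ENSG00000130766, chromosome 1) encodes sestrin 2, a leucine sensor and brake on mTORC1, and its promoter carries the THAP11 and ZNF143 letters shown above. It had 654.1, 805.4 and 856.4 normalized counts in the lowest, median and highest HCF-1 siRNA library, against 600.5, 708.5 and 761.5 in the control siRNA libraries. Of 8 HCF-1 siRNA libraries, 5 were above the highest control library. The log2 fold change of SESN2 was 0.19 ± 0.07 (SE, limma adjusted p = 0.0343). SESN2 was no longer called in 11 of 25 alternatives (adjusted p between 0.00984 and 0.0982 over all 25, from limma, edgeR or DESeq2). These left out HCF-1 siRNA replicate 1, 3, 5, 6 or 7 or control siRNA replicate 1, 3 or 8, used no filter, or scaled by upper quartile or total count.

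PPP1R15A (ENSG00000087074, chromosome 19) encodes GADD34, the phosphatase subunit that dephosphorylates eIF2 and restores translation. It had 492.2, 552.6 and 652.5 normalized counts in the lowest, median and highest HCF-1 siRNA library, against 430.8, 488.2 and 577.6 in the control siRNA libraries. All 8 HCF-1 siRNA libraries were above the control median, but only 2 were above the highest control library. The log2 fold change of PPP1R15A was 0.18 ± 0.07 (SE, limma adjusted p = 0.0478). PPP1R15A was no longer called in 17 of 25 alternatives (adjusted p between 0.0192 and 0.136 over all 25). These were edgeR (adjusted p = 0.0533), no filter, both other scalings, the block on replicate number (adjusted p = 0.125), and leaving out HCF-1 siRNA replicate 1, 2, 3, 5, 6 or 7 or control siRNA replicate 1, 2, 3, 5, 7 or 8.

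TRIB3 (ENSG00000101255, chromosome 20), a pseudokinase induced by ATF4 and CHOP that feeds back on both and binds AKT, did not pass. It had 2830.5, 3148 and 3453 normalized counts in the lowest, median and highest HCF-1 siRNA library, against 3043, 3399 and 3662 in the control siRNA libraries. The groups overlapped, with 3 of 8 HCF-1 siRNA libraries below the lowest control library. The log2 fold change of TRIB3 was -0.11 ± 0.05 (SE, limma adjusted p = 0.105), and with total-count scaling the decrease passed (adjusted p = 0.0399, against 0.0399 to 0.219 over the alternatives).

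ASNS (ENSG00000070669, chromosome 7), asparagine synthetase, is the classic amino acid response target whose element is shown above. It had 982.4, 1043 and 1396.5 normalized counts in the lowest, median and highest HCF-1 siRNA library, against 1021, 1164 and 1357 in the control siRNA libraries. The ranges lay almost on top of each other. The log2 fold change of ASNS was -0.06 ± 0.08 (SE, limma adjusted p = 0.54), with a 95% interval of -0.225 to 0.096, so an increase as large as that of ATF4 lay outside the interval. A transcript assigned to AC079781.5 covers 44.6% of the ASNS exonic bases on the same strand in GENCODE v29, and that gene was listed at 0 in every library.

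CHAC1 (ENSG00000128965, chromosome 15), a glutathione-degrading enzyme and a strong CHOP target in many cells, was barely counted. Only 17 reads were assigned to it over all 16 libraries. It was listed at 0 in 5 of 8 HCF-1 siRNA libraries and 4 of 8 control siRNA libraries, and its highest value was 6.14 normalized counts after HCF-1 siRNA and 2.79 after control siRNA. No change in CHAC1 was detectable at this depth, and this does not show that the gene was silent in the cells.

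**Figure D2:**
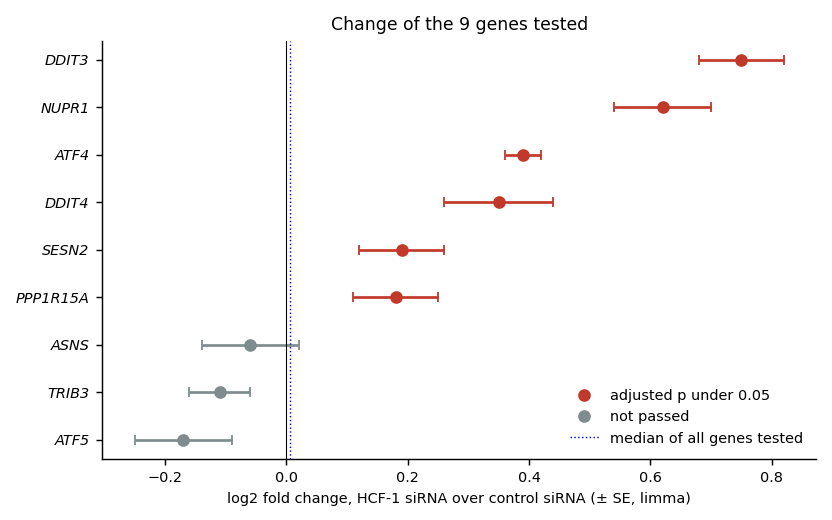
Log2 fold change of HCF-1 siRNA over control siRNA (x axis, points with SE bars from limma, 8 libraries each) for the 9 genes tested, red where the adjusted p was under 0.05. DDIT3 (0.75), NUPR1 (0.62), ATF4 (0.39) and DDIT4 (0.35) lie well above the median of all genes (dotted), and ATF5 (-0.17), TRIB3 (-0.11) and ASNS (-0.06) lie below it.

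Levels were compared between genes as normalized counts per kilobase of the longest principal transcript in GENCODE v29. After HCF-1 siRNA the medians per kilobase were 5223 for ATF4, 1260 for TRIB3, 596.7 for DDIT4, 442.8 for ASNS, 315.1 for DDIT3 and 285.5 for ATF5. After control siRNA they were 3978 for ATF4, 1360 for TRIB3, 482.7 for DDIT4, 493.9 for ASNS, 195.5 for DDIT3 and 323.2 for ATF5. SESN2 and PPP1R15A were almost equal per kilobase, at 233.2 and 232.4 after HCF-1 siRNA and 205.2 and 205.3 after control siRNA. ATF4 was highest and TRIB3 next in both groups, with ranges that did not overlap their neighbours. DDIT4 and ASNS overlapped in both groups, and so did DDIT3 and ATF5 after HCF-1 siRNA. After control siRNA, DDIT3 ran from 172.2 to 205.6 per kilobase and lay below the range of ATF5, 242.1 to 350.6. NUPR1 is left out of this order because its principal transcript is annotated at 5.49 kilobases and the isoform in these cells is not known here.

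Within a library, the ratio of 2 genes does not depend on how libraries were scaled, so the ratio to ATF4 shows which genes moved by more or less than the ATF4 transcript. Of 8 log2 ratios, 7 differed between the groups after Benjamini-Hochberg adjustment over the 8 (two-sided exact permutation tests), 2 higher and 5 lower after HCF-1 siRNA. Since ATF4 itself rose, most genes were lower against it. Of the other 16080 genes tested, 62.2% were lower and 3.5% higher at an unadjusted exact permutation p under 0.05, and their median difference was -0.38. The 5 of 8 stress genes that were lower (62.5%) were thus near the share of all genes, and that count says nothing particular about them. DDIT3 gained on ATF4, at -5.25 to -4.86 after HCF-1 siRNA and -5.62 to -5.34 after control siRNA, without overlap. The difference was 0.36 (exact permutation p = 1.55e-04, adjusted p = 4.14e-04), and this p is the smallest that 12870 splits can give. NUPR1 also gained, by 0.23 (exact permutation p = 0.00761, adjusted p = 0.0087).

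The ratios of TRIB3, ATF5 and ASNS to ATF4 were lower, by somewhat more than the median gene, and those of SESN2 and PPP1R15A by less. Without overlap, 29.1% of all other genes were lower against ATF4. The TRIB3 ratio was -1.88 to -1.66 after HCF-1 siRNA and -1.34 to -1.09 after control siRNA, without overlap, a difference of -0.50 (exact permutation p = 1.55e-04, adjusted p = 4.14e-04). The ATF5 ratio differed by -0.56, also without overlap (exact permutation p = 1.55e-04, adjusted p = 4.14e-04). The ASNS ratio differed by -0.46 with overlap (exact permutation p = 6.22e-04, adjusted p = 0.00124). SESN2 and PPP1R15A each lost 0.21 (exact permutation p = 0.00202 and 0.00497, adjusted p = 0.00323 and 0.00663). DDIT4 differed by -0.04, which did not pass (exact permutation p = 0.627, adjusted p = 0.627).

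**Figure D3:**
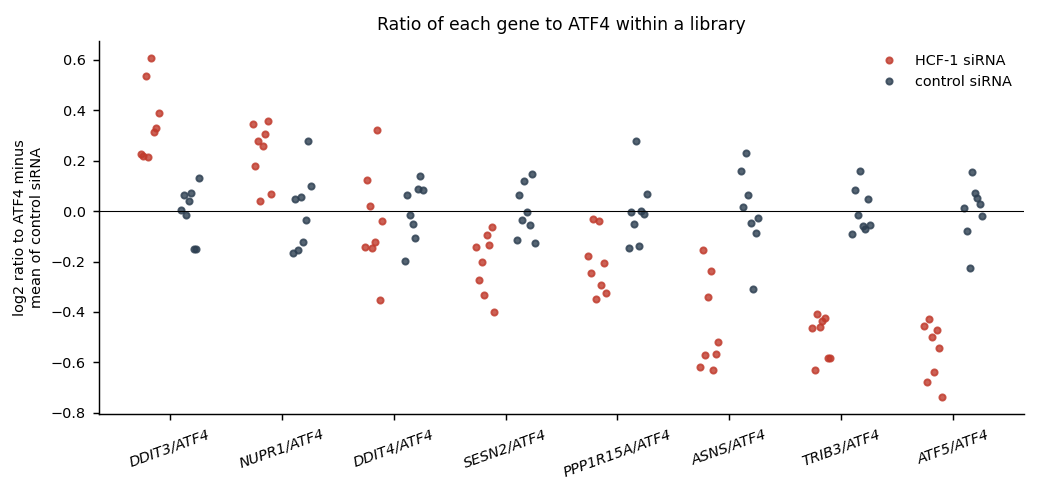
Log2 ratio of each gene to ATF4 within a library (y axis, set to 0 at the mean of the control siRNA libraries), 8 HCF-1 siRNA libraries (red) left of 8 control siRNA libraries (dark blue). The ratios of DDIT3, TRIB3 and ATF5 separate the groups, DDIT3 upward (0.36) and TRIB3 (-0.50) and ATF5 (-0.56) downward, where the median of all other genes was -0.38.

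Variation among libraries of the same group was examined with the group means removed, over 16 libraries and 36 pairs of the 9 genes. After adjustment over the pairs, 3 pairs were correlated by both measures (permutation tests with 100000 resamples within groups). ATF4 and ATF5 had r = 0.80 (permutation p = 3.30e-04, adjusted p = 0.00648) and rho = 0.72 (permutation p = 0.0026, adjusted p = 0.0312), although ATF4 rose and ATF5 did not pass. NUPR1 and SESN2 had r = 0.79 (permutation p = 3.60e-04, adjusted p = 0.00648) and rho = 0.84 (permutation p = 9.00e-05, adjusted p = 0.00324). ATF5 and TRIB3 had r = 0.74 (permutation p = 0.00147, adjusted p = 0.0176) and rho = 0.74 (permutation p = 0.00207, adjusted p = 0.0312). Without the 2 libraries farthest from the median, r was 0.65, 0.73 and 0.58 for these pairs in that order.

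DDIT3 varied largely apart from ATF4, with r = 0.17 (permutation p = 0.51, adjusted p = 0.655) and rho = 0.25 (permutation p = 0.366, adjusted p = 0.506), and r = 0.03 without the 2 farthest libraries. ASNS had a negative r with 7 of the 8 other genes, down to -0.46 with NUPR1 (permutation p = 0.0697, adjusted p = 0.179), and none of these passed. Values of r spread widely in these libraries. For ATF4, the 5th and 95th percentiles of r over 11468 genes with a mean of 100 or more were -0.63 and 0.63, and for DDIT3 they were -0.40 and 0.41. The r of DDIT3 with ATF4 lay inside both ranges. The 3 pairs that passed lay above the 95th percentiles of their genes, which were 0.62 for NUPR1, 0.63 for ATF4 and SESN2, and 0.70 for ATF5 and TRIB3.

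**Figure D4:**
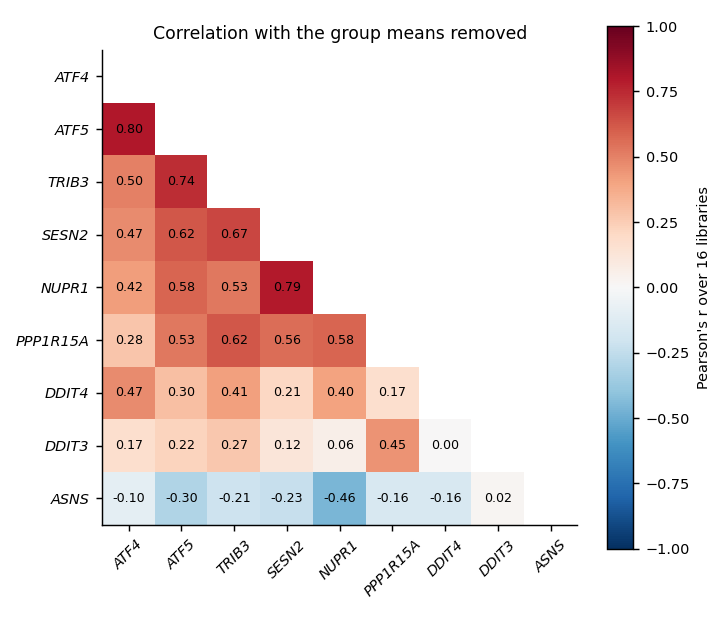
Pearson's r between 9 of the 10 genes over 16 libraries with the mean of each siRNA group removed, from blue (negative) to red (positive). ATF4 with ATF5 (0.80) and NUPR1 with SESN2 (0.79) are the highest, and the ASNS row is mostly below 0.

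The genes whose library-to-library pattern was most like each of the 9 were outside the set. Of the 27 nearest genes (the nearest 3 for each), 0 were among the 10. They were sought among 11468 genes, nearly all of them outside the set, so this count says little about the set. For ATF4 they were SERF2, PPP1R16A and SERPINF1 (r = 0.90 each, over 16 libraries). For DDIT3 they were SRCIN1 (r = 0.80), TRIM62 (r = 0.76) and BST2 (r = 0.74). For NUPR1 they were ADPRHL2 (r = 0.89), PIK3CD (r = 0.87) and PTRF (r = 0.86), and for ASNS they were ABHD13 (r = 0.86), FAM122A (r = 0.84) and PCDHB16 (r = 0.83). These r values are descriptions. With the log2 of total reads, r within groups ran from -0.27 (SESN2) to 0.20 (DDIT3) among the 9 genes. Any effect of handling shared by libraries was not tested.

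Upstream of ATF4, the genes of eIF2, its kinases and its exchange factor moved in both directions. Of 15 tested, 3 rose, 5 fell and 7 missed the threshold (53.3% called, against 36.6% of all genes), and the median log2 fold change was 0.00 against 0.01 for all genes. EIF2AK4, which encodes the amino acid sensor kinase GCN2, rose to 4539 ± 552 normalized counts after HCF-1 siRNA, against 3337 ± 453 after control siRNA, a log2 fold change of 0.45 ± 0.09 (SE, limma adjusted p = 6.24e-04). IMPACT, an inhibitor of GCN2 activation, fell to 237.7 ± 50.3 normalized counts after HCF-1 siRNA, against 325.8 ± 55.6 after control siRNA, a log2 fold change of -0.46 ± 0.13 (SE, limma adjusted p = 0.0106). EIF2B1, a subunit of the exchange factor eIF2B, fell to 1134 ± 120.0 normalized counts, against 1537 ± 85.0, with no overlap between the groups. EIF2AK3, which encodes the endoplasmic reticulum kinase PERK, had 917.7 and 928.7 normalized counts on average after HCF-1 siRNA and control siRNA and did not pass (limma adjusted p = 0.999). Of the other eIF2 kinase genes, EIF2AK1 fell (-0.18 ± 0.04, limma adjusted p = 0.00214) and EIF2AK2 did not pass (0.12 ± 0.08, limma adjusted p = 0.239).

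Of 12 genes for bZIP partners and relatives, 3 rose, 0 fell and 9 missed the threshold (3 of 12 called, against 36.6% of all genes), and the median log2 fold change was 0.05. CEBPD, a C/EBP factor, rose to 417.4 ± 52.7 normalized counts after HCF-1 siRNA, against 344.7 ± 22.3 after control siRNA (limma adjusted p = 0.0113). ATF2 (0.16 ± 0.06) and NFE2L1 (0.10 ± 0.03) rose by less on the log2 scale, and each lost its call in some alternatives. ATF3, usually induced together with DDIT3, had 278.0 normalized counts after HCF-1 siRNA and 273.3 after control siRNA and did not pass (limma adjusted p = 0.824). CEBPB and CEBPG, the C/EBP factors that pair with ATF4, did not pass either, with log2 fold changes of -0.08 ± 0.07 and 0.07 ± 0.05.

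Downstream, ATF4 targets of amino acid supply did not move together. Of 13 amino acid synthesis genes, 3 rose, 1 fell and 9 missed the threshold (30.8% called, against 36.6%), and the median log2 fold change was 0.04. ALDH1L2, a mitochondrial folate enzyme, rose at a low level and had 45.9, 66.0 and 150.2 normalized counts in the lowest, median and highest HCF-1 siRNA library, against 16.3, 30.5 and 34.6 in the control siRNA libraries (log2 fold change 1.36 ± 0.25, limma adjusted p = 4.23e-04). PSAT1, of serine synthesis, rose (0.24 ± 0.04) and PYCR1, of proline synthesis, fell (-0.24 ± 0.07). Of 10 transporter genes, 4 rose, 2 fell and 4 missed the threshold (60.0% called), and the median was -0.04. SLC38A2 rose (0.21 ± 0.07), SLC1A4 fell (-0.25 ± 0.07), and the cystine transporter gene SLC7A11 rose by 0.35 ± 0.13 (limma adjusted p = 0.0474), a call absent from 15 of 25 alternatives (0.0269 to 0.0949).

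Targets of tRNA charging and export included 12 synthetase genes and XPOT, the gene of a tRNA exporter. Of 13 tested, 2 rose, 6 fell and 5 missed the threshold (61.5% called, against 36.6% of all genes), and the median log2 fold change was -0.10. The 2 that rose were XPOT (0.26 ± 0.05) and LARS (0.21 ± 0.06), and the 6 that fell were synthetase genes. WARS, tryptophanyl-tRNA synthetase, fell to 2084.5 ± 53.6 normalized counts after HCF-1 siRNA, against 2682 ± 122 after control siRNA, a log2 fold change of -0.36 ± 0.03 (SE, limma adjusted p = 6.20e-07), with no overlap. YARS (-0.32 ± 0.08) and MARS (-0.32 ± 0.04) fell as well.

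Among 16 tested genes of the other ATF4 or CHOP targets, 9 rose, 2 fell and 5 missed the threshold (68.8% called, against 36.6%), and the median log2 fold change was 0.21. TNFRSF10B, the death receptor DR5 and a CHOP target, rose to 7138 ± 563 normalized counts after HCF-1 siRNA, against 5006 ± 648 after control siRNA, with no overlap (log2 fold change 0.52 ± 0.07, limma adjusted p = 2.09e-05). VEGFA, an angiogenic factor gene, rose (0.45 ± 0.09), as did GDF15, a stress-secreted cytokine gene (0.43 ± 0.11). BBC3 (0.30 ± 0.07) and BCL2L11 (0.28 ± 0.08), which encode the cell death proteins PUMA and BIM, rose too. Several of these genes, such as GDF15, TNFRSF10B and BBC3, are also known p53 targets, and which regulator acted was not tested. The 2 that fell were HMOX1, haem oxygenase (-0.28 ± 0.04), and EIF4EBP1 (-0.23 ± 0.05).

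**Figure D5:**
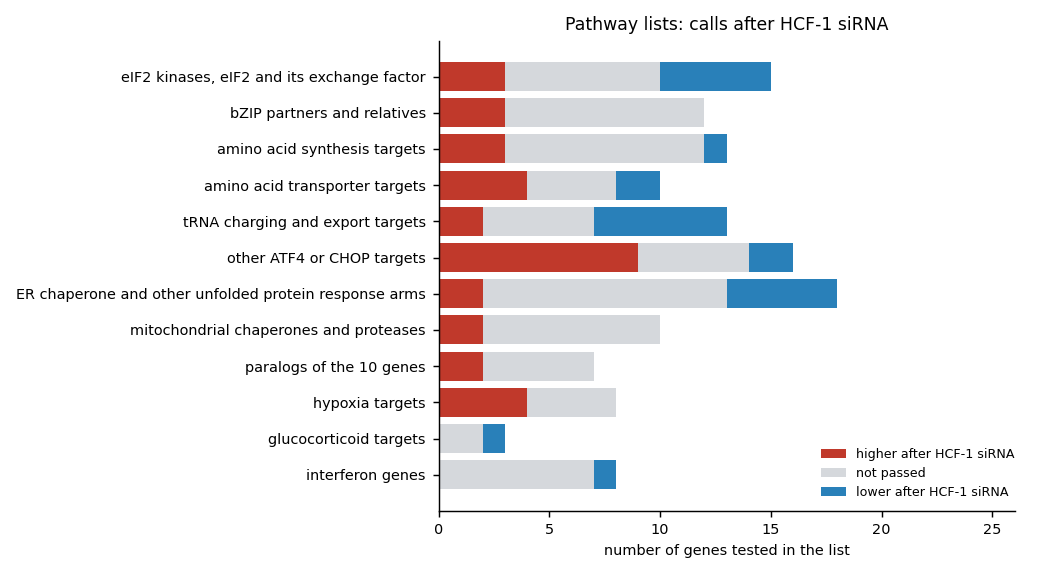
Number of genes tested in each list (x axis) that were higher (red), not passed (grey) or lower (blue) after HCF-1 siRNA against control siRNA, at a limma adjusted p of 0.05. The other ATF4 or CHOP targets have 9 higher and 2 lower of 16, and the tRNA charging and export targets have 2 higher (XPOT and LARS) and 6 lower of 13.

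Of 18 genes tested in the other arms of the unfolded protein response, 2 rose, 5 fell and 11 missed the threshold. The share called, 38.9%, was near the 36.6% of all genes, and the median log2 fold change was -0.04. HERPUD1, an endoplasmic reticulum degradation gene that ATF4 can induce, rose to 3059 ± 167 normalized counts after HCF-1 siRNA, against 2371 ± 60.7 after control siRNA (0.37 ± 0.04, limma adjusted p = 1.09e-06). The chaperone gene HSP90B1 also rose (0.25 ± 0.05, limma adjusted p = 0.00161). It averaged 45272 normalized counts after HCF-1 siRNA and 38029 after control siRNA. The chaperone genes SDF2L1 (-0.31 ± 0.07) and HYOU1 (-0.28 ± 0.06) fell. HSPA5, the main endoplasmic reticulum chaperone BiP, averaged 51456 normalized counts after HCF-1 siRNA and 51491 after control siRNA (limma adjusted p = 0.977). Of 10 mitochondrial chaperone and protease genes, 2 rose, 0 fell and 8 missed the threshold (2 of 10 called), and the median was 0.06. CLPX, a subunit of a matrix protease, rose (0.36 ± 0.04), and the smaller increase of YME1L1 (0.12 ± 0.05) was not called in 17 of 25 alternatives (limma adjusted p = 0.0462, and 0.0092 to 0.129 over the 25).

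Paralogs of the stress genes were set beside them. Of 7 tested, 2 rose, 0 fell and 5 did not pass (28.6% called, against 36.6% of all genes). SESN1, a sestrin gene under p53 control, rose to 1734.5 ± 150.0 normalized counts after HCF-1 siRNA, against 1148.5 ± 80.4 after control siRNA, with no overlap (log2 fold change 0.59 ± 0.06, limma adjusted p = 7.02e-07), a larger log2 fold change than that of SESN2. The difference between the 2 sestrin genes was not tested. PPP1R15B, the constitutive relative of PPP1R15A, rose by 0.16 ± 0.04 (limma adjusted p = 0.008). SESN3 (-0.34 ± 0.20), TRIB1 (0.06 ± 0.05), TRIB2 (0.08 ± 0.37), CHAC2 (-0.07 ± 0.09) and ASNSD1 (-0.04 ± 0.07) did not pass. DDIT4L and NUPR1L were listed at 0 in every library.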

How the data were processed

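The authors deposited normalized counts, which the values show to be a signal of whole reads per gene divided by 1 factor per library. The submitters' processing notes name, without saying what each did, the build hg19 and the tools DESeq2 1.16.1, featureCounts 1.4.4, STAR 2.4.1d and cutadapt 1.4.2. Neither strand setting, gene annotation nor filters were given in the sources used. All values (100%) were whole multiples of 1 step per library within 0.001 read, so reads were recovered. No per-library column was left out, and 1 column, whose name lacks a digit, was matched by title.

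The 8 HCF-1 siRNA and 8 control siRNA libraries, which the labels call biological replicates, were compared with limma 3.58.1 in R 4.3.3 (trend, robust) on log2(normalized count + 1), keeping genes whose mean reached 10, with Benjamini-Hochberg adjustment over all genes tested. Fold changes on this scale are understated for low genes. Of 56 pairs of libraries within a group, 0 agreed within sampling noise. Whether replicate numbers pair the libraries is not known here, and the main fit used no pairing.

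The 10 genes and all lists were chosen with earlier results of these data known. Named genes were the 10, HCFC1, in each list up to 3 called genes (group mean 50 or higher) that changed most, the paralogs, and the 3 nearest genes by r. EIF2AK3, EIF2B5, ATF3, CEBPB, CEBPG, BBC3, BCL2L11, HMOX1, HSPA5, XPOT, LARS and IFITM1 were named after their values were seen, as were the marker genes and the genes that overlap the 10. The same holds for EIF2AK1, EIF2AK2, EIF4EBP1 and HSP90B1. Alternatives were pseudocounts of 0.5 and 10, a minimum mean of 50 or none, scaling by total count or upper quartile, edgeR 4.0.16 and DESeq2 1.42.0 on recovered reads (5875 and 6258 genes called), the replicate block, and each library left out. The limma step was tested on simulated data, where it called 30% of 1.25-fold changes, 90% of 1.5-fold changes and 100% of 2-fold and 3-fold changes. Changes near 1.25-fold or smaller can therefore be missed. The simulation gave every gene the same spread setting, so these shares need not hold for each real gene. Exact tests used scipy 1.17.1.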

Additional observations from a re-analysis of the deposited data

How the results depend on the processing

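ATF4, DDIT3, NUPR1 and DDIT4 kept their direction and their call in all 25 alternatives, with log2 fold changes of 0.36 to 0.41, 0.71 to 0.77, 0.58 to 0.66 and 0.29 to 0.39. SESN2 and PPP1R15A kept their direction (0.16 to 0.22 and 0.15 to 0.22) but lost their calls as given above, so the number of the 10 genes called ran from 4 to 6. ASNS stayed between -0.11 and -0.03 without a call. Between 5163 and 6258 genes were called in all. The 7 ratios to ATF4 that passed did so in all 18 alternatives. The count called moved most, in proportion, for 4 lists. It was 1 or 2 for the mitochondrial list, 1 in place of 3 for the bZIP list without a filter or with either other scaling, 0 in place of 1 for the glucocorticoid list, and 2 in place of 1 for the interferon list. Smaller shifts occurred in other lists. The count ran from 7 to 10 for the eIF2 list, 4 to 7 for the transporters and 6 to 8 for tRNA charging and export. It ran from 6 to 10 for the other unfolded protein response arms and 3 to 5 for the hypoxia targets. Under the replicate block the log2 fold changes of DDIT3 and ATF4 were 0.75 and 0.39. With group means removed, same-numbered libraries correlated at -0.13 to 0.138. The same-numbered control library was the closest match for HCF-1 siRNA replicates 6 and 8 only. Weak correlation cannot show that same-numbered libraries were prepared apart, so whether the numbers pair them is not known here. Some called list genes were not called throughout. EIF2B5, counted among the genes that rose, was missed in 14 of 25 (adjusted p 0.0231 to 0.109), among them without HCF-1 siRNA replicate 2, 4, 5 or 8 or control siRNA replicate 3, 4, 5, 7 or 8. ATF2 was missed in 12 (0.0203 to 0.0832), among them without HCF-1 siRNA replicate 1, 2, 5 or 8 or control siRNA replicate 1, 4, 6 or 7. SLC7A11 was missed without HCF-1 siRNA replicate 1, 2, 4, 5 or 8 or control siRNA replicate 2 to 7, and YME1L1 without HCF-1 siRNA replicate 1, 2, 4, 5, 6 or 8 or control siRNA replicate 1, 2, 4, 6, 7 or 8. NFE2L1 was missed in 3 (0.00434 to 0.0804), and 1 library left out did not change its call. DDIT3 rested on 122 to 534 reads per library and CHAC1 on 7 or fewer, which limits both.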

Other observations

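DDIT4 is also a target of hypoxia and of glucocorticoids, so genes of both programmes were set beside it. Of 8 hypoxia targets tested, 4 rose, 0 fell and 4 did not pass after HCF-1 siRNA (4 of 8 called, against 36.6% of all genes), with a median log2 fold change of 0.26. CA9, carbonic anhydrase IX, rose to 152.8 normalized counts on average after HCF-1 siRNA, against 97.7 after control siRNA (0.68 ± 0.19, SE, limma adjusted p = 0.00904), and NDRG1 (0.35 ± 0.06) and EGLN3 (0.31 ± 0.10) rose too, EGLN3 losing its call without a filter on low values and under the replicate block. BNIP3, chosen after its values were seen, did not pass (0.02 ± 0.04). Of 3 glucocorticoid targets tested, 0 rose, 1 fell (FKBP5, -0.13 ± 0.04) and 2 did not pass. The log2 fold change of FKBP5 did not pass without a filter (adjusted p = 0.0701) or under the replicate block (adjusted p = 0.0567), which left 0. The part of either programme in the change of DDIT4 was not tested.

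Interferon genes can be induced by double-stranded RNA in transfected cells. Both groups were transfected, so whether transfection induced these genes was not tested. Of 8 tested, 0 rose, 1 fell and 7 did not pass (12.5% called, against 36.6% of all genes). Over all genes tested, 18.2% were called higher and 18.3% lower. The gene that fell was ISG15 (-0.70 ± 0.10, SE, limma adjusted p = 3.35e-05). It averaged 155.0 normalized counts after HCF-1 siRNA and 253.5 after control siRNA. The count was 2 with DESeq2 and without HCF-1 siRNA replicate 8 or control siRNA replicate 1. With DESeq2, IFITM1 also passed (log2 fold change -1.62, adjusted p = 0.00171), while limma gave -0.70 ± 0.59 (adjusted p = 0.384). For the same gene edgeR gave -0.29 (adjusted p = 0.778). IFITM1 ran from 19.42 to 395.5 normalized counts after HCF-1 siRNA (median 27.85) and 29.65 to 258.3 after control siRNA (median 45.56).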
